A study of Mus musculus with 8 samples.

Results

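The epithelium lining the colon was compared with that of the proximal small intestine (called intestine below) in late mouse embryos, at E16.5, when both are already columnar. The comparison takes 4 of the 8 poly(A) RNA-seq libraries in the study: colon replicates 1 and 2 and intestine replicates 1 and 2. Of the remaining libraries, the 2 from hindstomach, the glandular part of the stomach, serve only to estimate the spread between replicates, and the forestomach is not used. Per the labels' protocols no treatment was given, and the genotype named for the isolation at E16.5, in a sentence on ATAC-seq, is ShhCre;R26YFP/+, in which a Cre recombinase at the Shh locus, active in gut endoderm, switches on a yellow fluorescent reporter. The labels give no other genotype for any group. Colon and intestine were both loosened in 5 mM EDTA, the hindstomach in 10 mM EDTA, and the shaken-off epithelium was frozen for RNA with no sort described. The labels do not say whether the 2 libraries of a tissue came from separate embryos or how many embryos were pooled, so the p-values rest on a spread between libraries that may be no more than technical.

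Small and large intestine arise from 1 tube of endoderm and are told apart by position. Homeobox (Hox) genes are switched on in nested domains along the body axis, with the highest-numbered paralogs reserved for the hind end, and Gata4 marks the proximal small intestine. The small intestine specialises in absorbing fat, sugar and amino acids across a tall brush border. The colon recovers water and salt and is rich in mucus-producing goblet cells. In the late mouse fetus the colon has transient villi, and its cells express some genes of the small intestine.

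Values are FPKM, fragments scaled to transcript length and to the mapped total, in which levels of different genes can be set beside each other. Differences are in log2(FPKM + 1), a scale that understates changes of genes near 0, and are given as colon minus intestine ± standard error. A gene was called, and is said to have risen or fallen in the colon, at an adjusted p under 0.05 (limma, Benjamini-Hochberg over the 11861 genes that reached 1 FPKM in 2 or more of the 4 libraries) and at least a 2-fold change. A gene below 1 FPKM in both libraries of 1 tissue passed this filter only through the other tissue. For such a gene the order of the tissues follows from the filter and is not read as a result. All 15 genes of an epithelial list were present in every library. The adhesion gene Epcam stood at 557 and 511 FPKM in the colon libraries and 559.7 and 564 in the intestine libraries, and the intestinal master regulator Cdx2 at 112 and 91.1 against 133 and 135. Colonic markers were taken with earlier results of these data known. Among them Hoxb13, Hoxd13, Hoxa13, Hoxd12 and Car1 were higher in both libraries labelled colon. They passed the filter only through the colon, so that order is not read as a check of the labels. Of other colonic markers, Car4 was near 0 in all 4 (0.0621 and 0.0641 against 0.0252 and 0.00849) and Aqp8 was not higher in the colon. Of 8 small intestinal markers Gata4, Creb3l3, Apoa4, Lct and Onecut2 were lower in both colon libraries. Enpep and Naaladl1 differed by less than 2-fold among all 4. Fabp6 was higher in the colon, through which alone it passed the filter.

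The 2 colon libraries were not alike. Pearson's r across genes, a description since genes are not replicates, was 0.952 between them, 0.968 between colon replicate 1 and intestine replicate 1, and 0.982 between the intestine libraries. Colon replicate 1 lay between colon replicate 2 and intestine replicate 1 for 8764 of the 11861 genes. Relative depth, read from the steps of low FPKM values and uncertain by a factor of 2, was 0.474 for colon replicate 1, 0.851 for colon replicate 2 and 0.495 for intestine replicate 2, with intestine replicate 1 set to 1. Summed FPKM ran from 328490 to 352550. Markers of other cells differed too: 27 mesenchyme and smooth muscle genes summed to 1086 and 2487 FPKM in colon replicates 1 and 2, to 567 and 114 in intestine replicates 1 and 2, and to 333 and 530 in the hindstomach. Pancreas and liver genes summed to 1578 and 515 in the colon and 2570 and 503 in the intestine, led by the digestive enzyme gene Ctrb1. Because bulk RNA was measured, a different share of a cell type cannot be told apart from a different amount of RNA per cell. What sets colon replicate 1 apart was not tested, so results that depend on it are given without it as well; that fit has 1 colon library, assumed to vary like the other tissues' pairs.

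In total 319 genes rose in the colon, 2.69% of those tested, and 5 fell, 0.0422%. With the spread taken from the 4 compared libraries alone, 93 rose (0.784%) and none fell (0% of genes), while 4324 genes of the fit with hindstomach had an unadjusted p under 0.05, of which 963 were lower. With colon replicate 2 as the only colon library, the counts were 1855 higher (15.6%) and 579 lower (4.88%), and all 324 genes called with both colon libraries were among them. Without colon replicate 2 they were 119 (1% of genes) and 2 (0.0169%). Both directions together, 190 genes were called without intestine replicate 1, 69 without intestine replicate 2, and 92 and 89 without hindstomach replicates 1 and 2. Both colon libraries lay above both intestine libraries for 6709 genes (56.6%) and below them for 2396 (20.2%). The median difference of all genes was 0.22 and became -0.01 with median-of-ratios scaling, so list medians below should be read against 0.22.

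**Figure D1:**
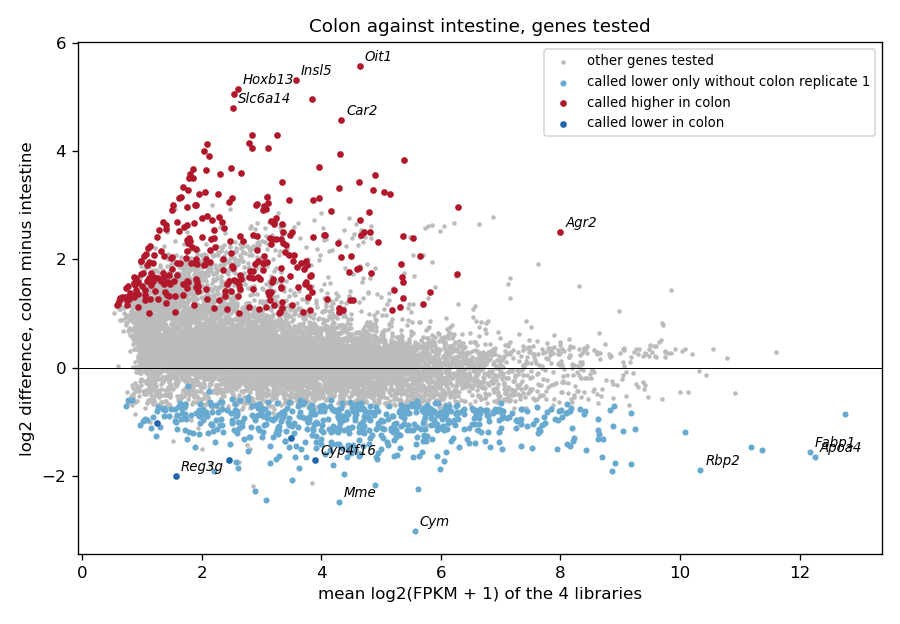
Each point is 1 gene tested, with the mean log2(FPKM + 1) of the 4 libraries on the horizontal axis and the log2 difference, colon minus intestine, on the vertical axis. Red points rose in the colon (319 genes), dark blue fell (5), and light blue were called lower only when colon replicate 1 was left out. Abundant absorption genes such as Apoa4 and Fabp1 are among the light blue points at the right.

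Among the genes that rose most, several encode secreted or transport proteins. Oit1 (chromosome 14, 8348937 to 8378754, GRCm38), which encodes the secreted protein FAM3D, stood at 138 and 215 FPKM in colon replicates 1 and 2 and at 3.2 and 2.12 in intestine replicates 1 and 2, a difference of 5.58 ± 0.34 (adjusted p = 0.00479). It was at 41.0 and 70.5 in the hindstomach, below both colon libraries and above both intestine libraries. Both replicates of each tissue were close beside that gap. Insl5, a peptide hormone of hindgut endocrine cells, was at 61.0 and 90.4 against 0.262 and 1.8 FPKM (5.32 ± 0.47, adjusted p = 0.00952). Atp12a, the non-gastric proton-potassium pump, was at 39.3 and 27.2 against 0.0293 and 0.00423 (5.05 ± 0.21, adjusted p = 0.00181). The amino acid transporter gene Slc6a14 was at 29.6 and 29.0 against 0.142 and 0.0389 (4.797 ± 0.15, adjusted p = 0.00181). In all of these the tissues were separated by far more than the replicates, but the rule took the largest called changes without overlap. Atp12a and Slc6a14 also passed the filter only through the colon.

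The carbonic anhydrase gene Car2 was at 102 and 92.7 against 4.73 and 1.97 FPKM (4.58 ± 0.38, adjusted p = 0.00913), and higher still in the hindstomach at 188 and 319. Sval1 was at 71.0 and 89.1 against 1.85 and 1.36, the adhesion gene Ceacam2 at 35.1 and 27.0 against 0.517 and 0.732, and the calcium-binding protein gene S100a14 at 33.2 and 51.9 against 1.36 and 0.986. The sialyltransferase gene St6galnac6 was at 22.7 and 34.4 against 0.92 and 0.399, the transglutaminase gene Tgm3 at 20.3 and 13.9 against 0.024 and 0.0162, and the receptor gene Gprc5a at 19.001 and 42.4 against 1.011 and 0.537. These 6 rose by 4.07 to 4.96 on the log2 scale (adjusted p = 0.00181 to 0.0101). S100a14 and Gprc5a were also present in the hindstomach, at 19.7 and 20.4 and at 18.1 and 18.4 FPKM, whereas Sval1 and St6galnac6 were at 0.851 and 0.189 and at 0.672 and 0.664. Of the 12 genes of this rule, Gprc5a was the only one not called in the fit of the 4 libraries (adjusted p = 0.0573).

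The 5 genes that fell were few and modest in level. Cyp4f16, a cytochrome P450 of the fatty acid hydroxylase family, was at 7.35 and 7.16 against 20.7 and 32.9 FPKM (-1.72 ± 0.23, adjusted p = 0.0258). H2-Bl, a class I histocompatibility gene annotated as a polymorphic pseudogene that may share reads with its relatives, was at 6.11 and 6.22 against 18.9 and 14.8 (-1.30 ± 0.16, adjusted p = 0.0211). The antimicrobial lectin gene Reg3g was at 0.627 and 0.33 against 3.26 and 7.28 (-2.01 ± 0.34, adjusted p = 0.046). Mylk3 and 9430069I07Rik, outside the rule for named genes and given because the count is small, were at 0.656 and 0.677 against 2.26 and 2.56 and at 1.77 and 2.34 against 10.1 and 7.9. In each of the 5 both colon libraries were below both intestine libraries, which for Reg3g and Mylk3 follows from the filter.

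Hox genes were read by paralog group. Of 39 Hox genes listed, 21 passed the filter, and 18 of these did so only through the colon, with both colon libraries at 1 FPKM or more and both intestine libraries below it. For these 18 the order of the tissues follows from the filter and is not read as a result. In paralog groups 10 to 13, 6 of 12 genes listed rose (7 tested), in groups 6 to 9, 4 of 12 (5 tested), and in groups 1 to 5 none of 15 (9 tested), where 2.69% of all genes tested rose. Every gene tested in groups 6 to 9 and 10 to 13 is among the 18, so the counts are not read against that share. With the 4 libraries alone the counts were 3, 1 and 0, and without colon replicate 2 they were 5, 2 and 0. Hoxb13, on chromosome 11 from 96194316 to 96197447 (GRCm38), was the most abundant, at 30.2 and 41.1 FPKM in colon replicates 1 and 2 against 0.0487 and 0 in the intestine (5.15 ± 0.19, adjusted p = 0.00181). Hoxd13 was at 9.95 and 14.2 against 0.02 and 0.00673 (3.67 ± 0.21, adjusted p = 0.0043) and Hoxa13 at 3.2 and 4.12 against 0.00334 and 0.00676 (2.20 ± 0.19, adjusted p = 0.00913). These genes of group 13, which specify the terminal gut and the distal limb, were listed at or near 0 in both intestine libraries.

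Hoxa10 was at 5.12 and 9.69 against 0.0177 and 0 FPKM, Hoxa11 at 2.51 and 5.5 against 0.00722 and 0 and Hoxd12 at 1.13 and 1.63 against 0 and 0.00659, differences of 3.00, 2.25 and 1.24 (adjusted p = 0.0117, 0.029 and 0.0423). Hoxd10, at 1.62 and 4.62 against 0.0182 and 0, missed the threshold (adjusted p = 0.0613). In the middle groups Hoxb9 rose most, from 0.109 and 0.00649 FPKM in the intestine to 6.61 and 10.7 in the colon (3.16 ± 0.25, adjusted p = 0.00818). Hoxa9 (2.53 and 4.34 against 0.0237 and 0), Hoxa7 (1.78 and 2.93 against 0.0833 and 0.0116) and Hoxb7 (2.35 and 4.49 against 0.487 and 0.26) rose as well, with adjusted p = 0.0176, 0.0286 and 0.0498. Anterior members were detected in the intestine too. Hoxa5 stood at 6.32 and 15.0 FPKM in the colon and 2.35 and 0.65 in the intestine (adjusted p = 0.0794), and Hoxb5 at 3.98 and 10.7 against 0.987 and 0.252 (adjusted p = 0.064).

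Colon replicate 2 was above colon replicate 1 for all 21 genes tested, and intestine replicate 1 above intestine replicate 2 for all 9 of groups 1 to 5. The summed mesenchyme markers followed this order (1086 and 2487 in the colon, 567 and 114 in the intestine), and their part in these values was not tested. Leaving out colon replicate 1, the medians of groups 1 to 5, 6 to 9 and 10 to 13 were 2.17, 2.29 and 2.70. Leaving out colon replicate 2 they were 0.90, 1.41 and 2.06. Most of these genes passed the filter only through the colon, so the medians are not read against all genes. The 4 clusters were used unequally: 9 genes of cluster A, 7 of B and 5 of D passed the filter, and none of the 9 Hoxc genes in the table did. The highest Hoxc value was 2.27 FPKM, for Hoxc8 in colon replicate 2, and Hoxc8 was at 0.228 in colon replicate 1 and 0.231 in intestine replicate 1, so its groups overlapped. The noncoding RNA genes Hottip and Hoxa11os of cluster A, named after their values were seen, were at 1.18 and 1.65 against 0.00287 and 0 and 7.5 and 11.2 against 0.0242 and 0 and rose (adjusted p = 0.0384 and 0.00508); without a stated strand setting, reads of Hoxa11os and Hoxa11 cannot be told apart.

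**Figure D2:**
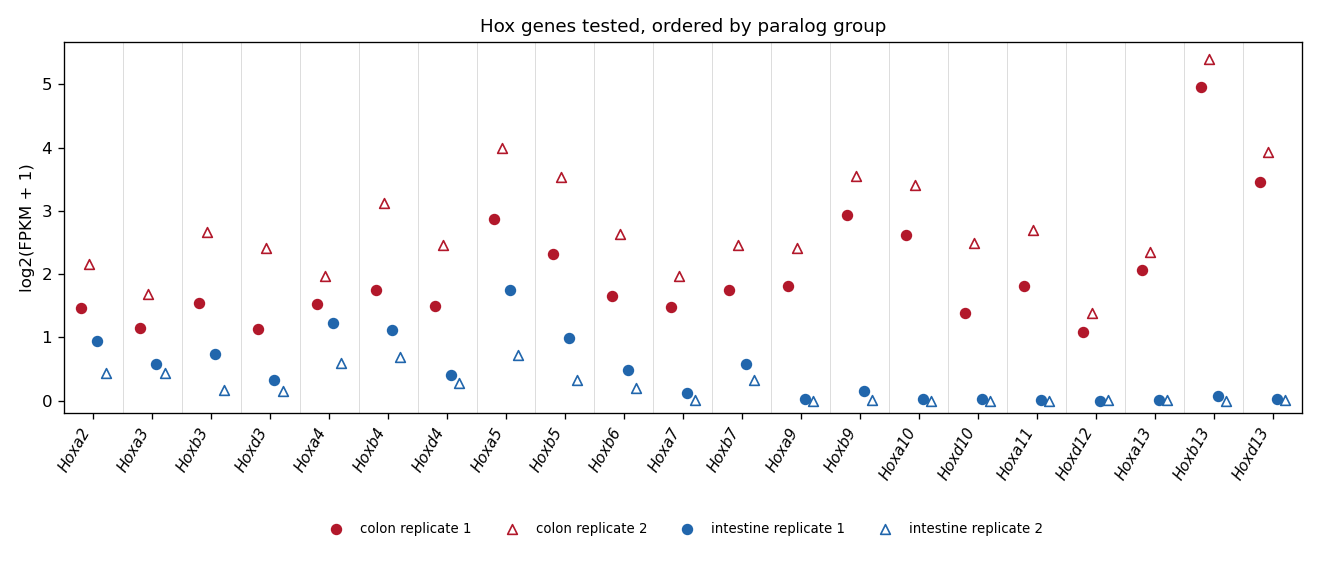
Levels of the 21 Hox genes tested, as log2(FPKM + 1), ordered by paralog group from left to right, with red for colon, blue for intestine, filled circles for replicate 1 and open triangles for replicate 2. For 18 of the 21 the red symbols lie above the blue by the filter itself, which they passed through the colon alone. The sizes of the gaps are what the plot shows, widest for Hoxb13.

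A microRNA gene of this cluster was in the same pattern. The row of Mir196a-1, which lies between Hoxb13 and Hoxb9 on chromosome 11 from 96265164 to 96265265, was at 11.97 and 21.1 against 0.081 and 0.164 FPKM, a difference of 3.92 ± 0.27 (adjusted p = 0.00587), and was listed at 0 in both hindstomach libraries. It was named after its values were seen, and it passed the filter only through the colon. The row counts poly(A) RNA that covers the hairpin, not the mature microRNA. Its relative Mir196b, in cluster A, was below the filter at 0.616 and 0.571 against 0 and 0.196, and Mir196a-2, in cluster C, was listed at 0 in all 4 libraries. The mature 5p strands are shown because the 2 genes with reads share a seed (bases 2 to 8, in capitals), the stretch by which a microRNA pairs with its targets, among them Hox transcripts. Sequences are from RefSeq (GRCm38.p6).
miR-196a-5p: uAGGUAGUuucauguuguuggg
miR-196b-5p: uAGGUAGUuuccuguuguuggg
The capitals are the same in both, and the strands differ downstream of the seed.

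Of 11 colonic regulators tested, 6 rose (4 of them also in the Hox lists) and none fell, with a median of 1.93. The shares of all genes were 2.69% and 0.0422%. The 4 Hox genes and Foxd2 passed the filter only through the colon, so the count and median are not read against all genes. The forkhead gene Foxd2 was at 8.26 and 13.5 against 0.0382 and 0.00644 (3.50 ± 0.25, adjusted p = 0.00587), beside its divergent partner Foxd2os at 6.11 and 10.6 against 0.0384 and 0.0259. Nr3c2, the mineralocorticoid receptor, was at 3.19 and 3.24 against 1.07 and 1.15 and was just short of the 2-fold rule at 1.00 (adjusted p = 0.0372). Both libraries of each tissue were close together for these genes.

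Of 16 regulators of the small intestine tested, 11 were lower in both colon libraries than in both intestine libraries (20.2% of all genes were), by amounts that differed between the 2 colon libraries, and none passed the test as lower. Gata4, the zinc finger factor of the proximal small intestine, was at 29.1 and 8.64 FPKM in colon replicates 1 and 2 and at 52.6 and 53.0 in the intestine (-1.66 ± 0.50, adjusted p = 0.105). The difference was -2.48 ± 0.11 in the fit without colon replicate 1 and -0.84 ± 0.11 in that without colon replicate 2. Onecut2 stood at 5.98 and 0.467 against 9.11 and 12.2 FPKM and Pdx1, the duodenal and pancreatic homeobox gene, at 2.79 and 0.297 against 4.96 and 5.3. Creb3l3, a regulator of lipid genes, was at 124 and 47.2 against 183 and 221, and the nuclear receptor gene Hnf4g at 89.2 and 39.7 against 130.2 and 130.2. With colon replicate 2 as the only colon library, 9 of the 16 were called lower (4.88% of all genes were), and Foxa3 higher. Colon replicate 1 lay above colon replicate 2 and below the intestine in each of these 5 genes. Foxa3, a forkhead factor also of goblet cells, went the other way and rose with both colon libraries (16.2 and 23.2 against 6.5 and 6.03 FPKM, 1.49 ± 0.18, adjusted p = 0.0191). The colonic list had 1 member against its direction without colon replicate 1, Prdm16 (6.18 and 1.76 against 8.95 and 10.9 FPKM, -1.98, adjusted p = 0.0142).

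Of 19 factors of the whole intestine 4 rose and none fell (2.69% and 0.0422% of all genes did). Cdx2 and Cdx1, which set intestinal identity, were at 112 and 91.1 against 133 and 135 and at 138 and 134 against 79.6 and 84.8 FPKM, differences of -0.41 ± 0.21 and 0.72 ± 0.20 (adjusted p = 0.201 and 0.0993). Hnf4a was at 149 and 104 against 166 and 165 (-0.40 ± 0.20, adjusted p = 0.185). The 4 were Klf4, a brake on proliferation in the differentiated epithelium, at 56.6 and 81.1 against 13.7 and 11.9 FPKM, the epithelial Ets factor Ehf at 49.9 and 67.9 against 9.23 and 10.6, and the forkhead genes Foxa1 and Foxa2 at 19.8 and 27.9 against 6.64 and 5.33 and at 8.41 and 10.9 against 1.35 and 0.705. Their differences were 2.32, 2.45, 1.82 and 2.401 (adjusted p = 0.0154, 0.00913, 0.015 and 0.00924). When colon replicate 1 was left out, the Gata genes Gata5 and Gata6 were lower, at -1.85 and -1.14 (adjusted p = 0.0103 and 0.0105).

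Goblet cell genes had the highest count of genes that rose among the lists. Of 32 tested, 17 rose and none fell, beside 2.69% and 0.0422% of all genes, with a median of 1.74. Both colon libraries lay above both intestine libraries for 26 (56.6% of all genes). The count of 17 was 5 with the 4 libraries alone and 10 without colon replicate 2. The secreted gel-forming mucin gene Muc2 was at 36.6 and 47.6 FPKM in the colon and 2.37 and 6.4 in the intestine (3.10 ± 0.41, adjusted p = 0.0243). Best2, a chloride channel of colonic goblet cells, was at 12.6 and 19.02 against 0.0395 and 0.00799 (4.01 ± 0.22, adjusted p = 0.0043), so the intestine libraries were near 0 for it but not for Muc2. Creb3l1, an endoplasmic reticulum transcription factor, was at 63.4 and 101 against 7.98 and 5.28 (3.43 ± 0.32, adjusted p = 0.0111), and Bcas1 at 23.9 and 40.6 against 3.48 and 2.18 (3.09 ± 0.30, adjusted p = 0.0117). The secretory fate genes Atoh1 and Spdef were at 17.4 and 28.3 against 4.35 and 3.36 and at 28.5 and 50.8 against 7.33 and 5.11, and Agr2, which helps fold mucins, at 514 and 716 against 118 and 96.0. They rose by 2.27, 2.45 and 2.50 (adjusted p = 0.029, 0.0188 and 0.00913).

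Other goblet products were abundant in both tissues. The trefoil factor gene Tff3 stood at 1382 and 1667 FPKM in the colon and 573 and 546 in the intestine and missed the threshold (1.44 ± 0.27, adjusted p = 0.0586), as did Clca1 (339 and 432 against 114 and 89.8, adjusted p = 0.0577). Zg16, a lectin of the colonic mucus, was not higher in the colon (59.8 and 24.2 against 57.1 and 61.1), nor was Reg4 (141 and 129 against 141 and 183). Muc13, a mucin anchored in the enterocyte membrane, was at 556 and 333 against 709 and 839 and went against the rest of the list without colon replicate 1 (-1.21, adjusted p = 0.0145). In that fit 23 of the 32 were called higher and 3 lower (15.6% and 4.88% of all genes). Colon replicate 2 exceeded colon replicate 1 for Muc2, Atoh1, Spdef and Agr2, each by less than the gap to the intestine.

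Genes of surface colonocytes, the absorptive cells of the colon, were split. Of 33 tested, 10 rose and none fell (2.69% and 0.0422% of all genes did), and 6 were called higher with the 4 libraries alone and 6 without colon replicate 2. Beside Atp12a and Car2 these were Ceacam1 at 67.9 and 86.8 against 3.81 and 4.26 FPKM (3.95 ± 0.15, adjusted p = 0.00181) and B3gnt7, a glycosyltransferase gene, at 32.1 and 36.0 against 1.07 and 1.15 (4.05 ± 0.43, adjusted p = 0.015). Saa1, an acute-phase apolipoprotein, was at 12.2 and 10.0 against 0.0272 and 0 (3.57 ± 0.17, adjusted p = 0.00309). Hsd11b2, which protects the mineralocorticoid receptor from glucocorticoids, was at 10.8 and 12.8 against 0.381 and 0.308 (3.25 ± 0.27, adjusted p = 0.00913). Car1, a carbonic anhydrase typical of adult colon, was still low, at 3.3 and 2.53 FPKM in the colon, and was listed at 0 in both intestine libraries (1.96 ± 0.19, adjusted p = 0.0117). In all of these the replicates of each tissue were close. Atp12a, Saa1, Hsd11b2 and Car1 passed the filter only through the colon.

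Some transporters that serve the adult colon surface were higher in both intestine libraries instead. The water channel gene Aqp8 was at 47.0 and 11.4 FPKM in colon replicates 1 and 2 and at 48.3 and 70.7 in the intestine. The sodium-proton exchanger gene Slc9a3 was at 18.6 and 3.72 against 21.9 and 35.8 and the chloride-bicarbonate exchanger gene Slc26a3 at 19.1 and 5.83 against 26.7 and 34.3. With both colon libraries these were not called (adjusted p = 0.182, 0.155 and 0.116). Leaving out colon replicate 1, all 3 and Slc37a2 were called lower, at -2.26, -2.62, -2.20 and -2.13 (adjusted p = 0.0121, 0.018, 0.0101 and 0.0145), and 14 others of the list higher (4.88% and 15.6% of all genes). The guanylin peptides, which set fluid secretion, lay in opposite directions. Guca2a, guanylin, stood at 222 and 223 against 98.9 and 82.9 FPKM and Guca2b, uroguanylin, at 98.7 and 42.9 against 108 and 199. Neither was called (adjusted p = 0.0969 and 0.142), and without colon replicate 1 Guca2b was called lower at -1.75 (adjusted p = 0.0354) while Guca2a was not called (adjusted p = 0.0857). Of the 17 genes of guanylin signalling and chloride secretion, Best2, the chloride channel gene Ano1 (7.72 and 11.6 against 0.947 and 0.227) and the sodium-proton exchanger gene Slc9a2 (4.2 and 3.23 against 0.457 and 0.667) rose (adjusted p = 0.015 for Ano1 and 0.0228 for Slc9a2), where 2.69% of all genes did. Best2, Ano1 and Slc9a2 all passed the filter only through the colon, so their count is not read against that share. With the 4 libraries alone, and without colon replicate 2, 1 of the 17 was called.

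**Figure D3:**
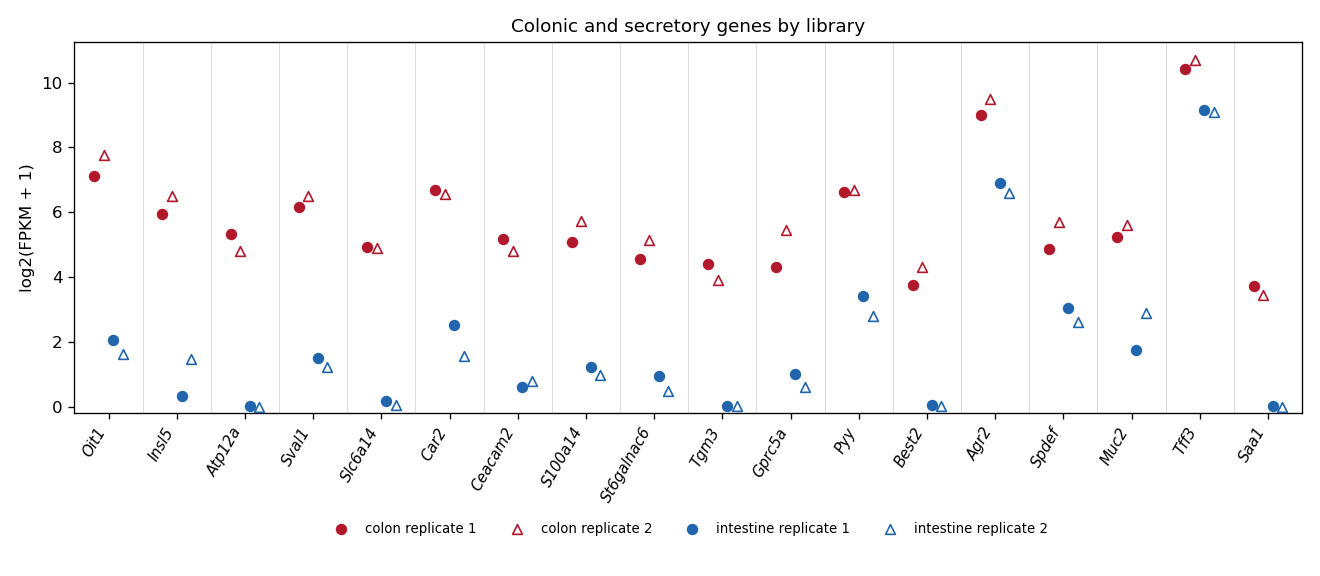
Levels of 18 genes of colonic secretion and transport as log2(FPKM + 1), red for colon, blue for intestine, filled circles for replicate 1 and open triangles for replicate 2. Both colon symbols lie above both intestine symbols in each of the 18 genes (56.6% of all genes), which follows largely from choosing genes that rose. Tff3 alone of them was not called.

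Of 19 genes of hormones and granules of enteroendocrine cells, the scattered sensory cells of the gut, 2 rose and none fell (2.69% and 0.0422% of all genes did). The 2 were Insl5, given above, and another product of hindgut L cells, Pyy, peptide YY, at 98.6 and 103 FPKM in the colon and 9.78 and 5.98 in the intestine (3.55 ± 0.25, adjusted p = 0.00587). Gcg, which encodes the glucagon-like peptides, was at 17.3 and 23.6 against 9.07 and 6.73 and missed the threshold (adjusted p = 0.0606). Gip and Cck, hormones of the upper small intestine, were at 25.8 and 9.69 against 45.4 and 63.0 and at 30.8 and 9.05 against 51.0 and 54.6 FPKM, differences of -1.69 ± 0.43 and -1.59 ± 0.53 (adjusted p = 0.0951 and 0.111). With colon replicate 2 as the only colon library, they were called lower at -2.35 and -2.42 (adjusted p = 0.0103 and 0.01). Sct, secretin, was at 89.6 and 74.0 against 104 and 101 and differed by -0.33 ± 0.15 (adjusted p = 0.164). Of the 19, 6 were called higher and 4 lower without colon replicate 1 (15.6% and 4.88% of all genes). The lineage gene Neurog3 was at 3.84 and 3.53 against 5.18 and 3.13, with overlapping groups. Ffar2, a receptor for short-chain fatty acids, and Slc5a8, a transporter of them, lie outside the lists and were named after their values were seen; they rose, at 21.5 and 22.8 against 2.89 and 2.53 and 9.77 and 9.62 against 0.134 and 0.0534 FPKM (adjusted p = 0.00433 and 0.00309).

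Genes of fat absorption were among the most abundant in the intestine, and they were also abundant in the colon. Apoa4, an apolipoprotein of chylomicrons (chromosome 9, 46240696 to 46243459), stood at 5177 and 1461 FPKM in colon replicates 1 and 2 and at 6997 and 10754 in intestine replicates 1 and 2. The difference of -1.66 ± 0.63 missed the threshold (adjusted p = 0.128). It was -2.57 ± 0.38 without colon replicate 1 and -0.74 ± 0.38 without colon replicate 2. The fatty acid binding protein genes Fabp1 and Fabp2 were at 4773 and 1502 against 6782 and 9222 and at 2969.9 and 828 against 3502 and 5809, and the retinol binding protein gene Rbp2 at 1333 and 338 against 2047 and 3027. Apoa1 was at 2361 and 832 against 3339 and 4565 and Apoc3 at 426 and 126 against 580.5 and 915. In each of these 6 colon replicate 1 was nearer to intestine replicate 1 than to colon replicate 2, and colon replicate 2 was the lowest of the 4. Apoa4, Fabp1, Fabp2, Apoa1 and Rbp2 were among the 10 genes with the highest mean FPKM over the 4 libraries, with the noncoding fetal transcript H19 (6496 and 4129 against 9134 and 9609), Eef1a1, Ftl1, Rplp1 and Rps12.

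Of 32 lipid genes tested, 1 rose and none fell (2.69% and 0.0422% of all genes did), with a median of -1.13, and both colon libraries lay below both intestine libraries for 25 (20.2% of all genes). The list median was -1.75 without colon replicate 1 and -0.50 without colon replicate 2, so its size depended on which colon library was kept. The gene that rose was Fabp6, the ileal bile acid binding protein, at 11.2 and 9.48 FPKM in the colon and 0.414 and 0.837 in the intestine (2.81 ± 0.20, adjusted p = 0.00659). The bile acid uptake transporter gene Slc10a2, likewise known from the ileum, was at 2.21 and 2.1 against 0.0796 and 0.0483 and rose too (1.57 ± 0.17, adjusted p = 0.0154). These were the only 2 of 8 bile acid genes to rise, and none fell. Both passed the filter only through the colon, so their order between the tissues is not read as a result. The intestinal samples are proximal by label, so neither group is labelled as ileum. Whether any ileum is in either group was not tested. In the fit without colon replicate 1, the bile salt pump gene Abcb11 (13.8 and 1.81 against 17.5 and 28.8 FPKM), the efflux subunit gene Slc51b (33.7 and 12.01 against 33.9 and 57.3) and Nr0b2 (7.43 and 2.35 against 11.7 and 15.6) were called lower, with Slc51a and Abcc2.

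Brush border enzymes showed the same order of libraries. The disaccharidase lactase, Lct, was at 300.5 and 93.6 FPKM in colon replicates 1 and 2 and at 389.5 and 515 in the intestine (-1.41 ± 0.58, adjusted p = 0.143). Intestinal alkaline phosphatase, Alpi, was at 317 and 94.1 against 406 and 552 (-1.45 ± 0.56, adjusted p = 0.13), and aminopeptidase N, Anpep, at 330.3 and 103 against 408 and 553 (-1.36 ± 0.54, adjusted p = 0.134). Neprilysin, Mme, showed the widest gap, at 22.1 and 1.99 against 38.0 and 54.7. When colon replicate 1 was left out, the differences were -2.25, -2.32, -2.20 and -3.96. When colon replicate 2 was left out instead, they were -0.57, -0.58, -0.52 and -1.01. Sucrase-isomaltase, Sis, an enzyme of the weaned gut, was under 1 FPKM in all 4 libraries (0.46 and 0.159 against 0.642 and 0.68). None of 11 peptidases and 5 disaccharidases and phosphatases was called with both colon libraries, and 5 and 4 were called lower without colon replicate 1 (4.88% of all genes).

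Not every brush border gene followed. Enpep, aminopeptidase A, was at 96.1 and 84.4 against 110.02 and 94.1 FPKM (-0.17 ± 0.13, adjusted p = 0.349, and -0.27 ± 0.14, adjusted p = 0.201, without colon replicate 1). The meprin subunit gene Mep1a was at 109 and 93.1 against 99.9 and 117, and Naaladl1, fixed as a small intestinal marker, was at 65.3 and 50.1 against 41.5 and 46.5 (0.37 ± 0.20, adjusted p = 0.218). The groups overlapped for Enpep and Mep1a, and Naaladl1 was higher in both colon libraries. Structural genes of the microvillus were lower by small amounts, with a median of -0.66 over 21 genes and none called. Villin, Vil1, was at 279 and 169.6 against 319.9 and 374, the protocadherin gene Cdhr5 at 271 and 114 against 286 and 424, and plastin 1, Pls1, at 158 and 75.4 against 191 and 251, and 9 of the 21 were called lower without colon replicate 1 (4.88% of all genes).

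**Figure D4:**
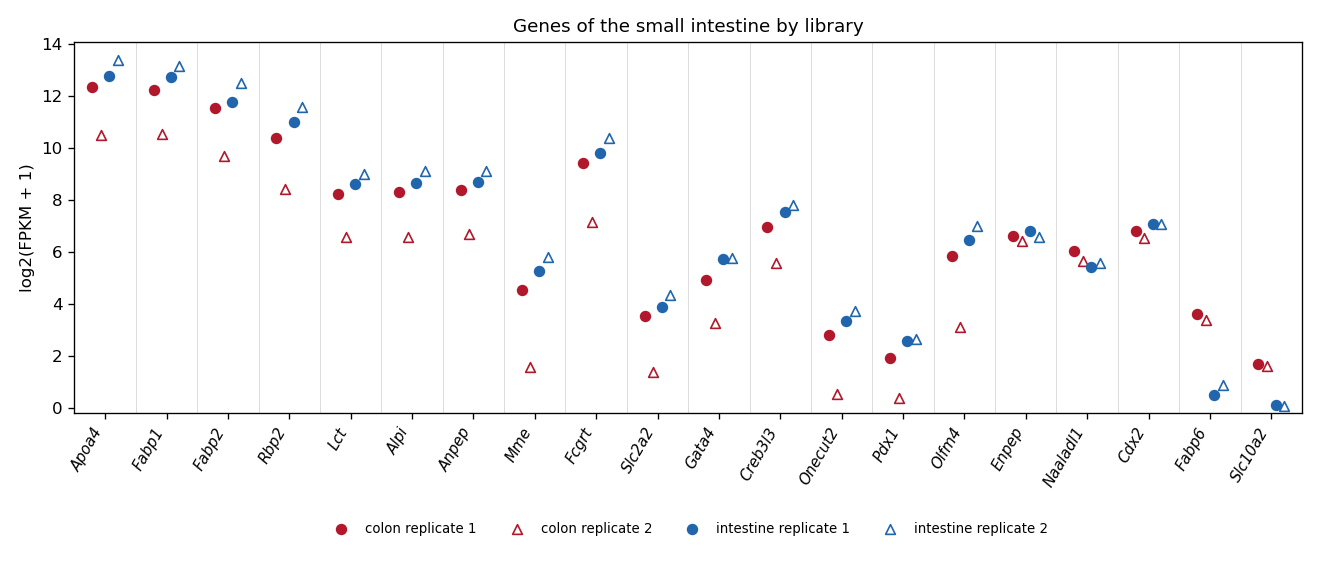
Levels of 20 genes of the small intestine as log2(FPKM + 1), in the same colors and symbols: red colon, blue intestine, filled circles replicate 1, open triangles replicate 2. From Apoa4 to Olfm4 colon replicate 1 lies near the intestine and colon replicate 2 below it. Enpep, Naaladl1 and Cdx2 are close in all 4 libraries. Fabp6 and Slc10a2 are higher in both colon libraries by the filter itself, which they passed through the colon alone.

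Of 24 nutrient transporters 17 were lower in both colon libraries than in both intestine libraries (20.2% of all genes), and 5 were higher in both (56.6%). The glucose transporter gene Slc2a2 was at 10.8 and 1.61 FPKM in colon replicates 1 and 2 and 13.8 and 19.2 in the intestine, the sodium-glucose cotransporter gene Slc5a1 at 98.0 and 47.0 against 126 and 159, and the cystine transporter subunit gene Slc3a1 at 129.6 and 57.1 against 168 and 209. Slc6a14 alone rose of the 24, and none fell (2.69% and 0.0422% of all genes did). When colon replicate 1 was left out, 14 were called lower and 2 higher (4.88% and 15.6% of all genes), the second being the nucleoside transporter gene Slc29a1 (12.5 and 16.1 against 7.51 and 5.84, adjusted p = 0.0176). Among vitamin and mineral transporters Slc52a3, which carries riboflavin, was higher in both colon libraries (10.3 and 10.3 against 2.58 and 2.78, 1.62 ± 0.29, adjusted p = 0.0545 with the hindstomach in the fit and 0.0317 in the 4 libraries). The iron transporter gene Slc11a2 was at 55.4 and 23.3 against 48.1 and 76.3 (adjusted p = 0.267).

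Of 25 genes of fetal protein uptake, 21 were lower in colon replicate 2 than in colon replicate 1. Fcgrt, the neonatal Fc receptor that carries maternal antibody across the gut, stood at 686 and 142 FPKM in colon replicates 1 and 2 and 889.7 and 1322 in the intestine (-1.79 ± 0.72, adjusted p = 0.139). The lysosomal channel gene Mcoln3 was at 36.2 and 13.7 against 57.8 and 58.8 and cathepsin L, Ctsl, at 259 and 151 against 374 and 492, whereas the adaptor gene Dab2 was level at 11.7 and 13.7 against 13.8 and 11.5. None of the 25 was called, and without colon replicate 1, 12 were called lower and 1 (Myof, 3.07 and 5.37 against 1.45 and 1.008) higher (4.88% and 15.6% of all genes). Of 41 genes of foreign compound metabolism none was called, and 16 were called lower and 3 higher without colon replicate 1 (the same shares of all genes apply), with Gstm3 at 59.1 and 18.1 against 78.2 and 93.3 and Ces2e at 76.7 and 25.2 against 98.4 and 134 among the lower and Gsta4 at 59.7 and 94.4 against 30.1 and 15.5 among the higher.

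Promoters of all genes called lower without colon replicate 1, not only of absorptive genes, were read for short motifs. HNF4 factors are known regulators of enterocyte genes. The RefSeq table gives 300 bases per start, 250 before it and 50 from it on. The letters CAAAGTCCA, a core of the HNF4 motif, stood on either strand in 3.40% of 559 promoters of genes called lower without colon replicate 1. The share was 0.528% of 11750 promoters of genes tested, 0.641% of 312 promoters of genes that rose, and 0.475% of all 32851 promoters. The GATA letters AGATAA were in 13.2%, 6.53%, 7.69% and 11.2% of the same groups, and the TATA box letters TATAAA in 11.4%, 7.34%, 11.2% and 13.6%. The CDX letters TTTATGG were in 2.33%, 1.72%, 3.53% and 2.75%, and the letters TTTACGA, bound by group 13 Hox proteins, in 1.25%, 0.698%, 0% and 0.597%. The HNF1 motif, given by name, was in 0.537%, 0.0766%, 0.321% and 0.0609%, the FOXA letters TGTTTAC in 3.40%, 2.545%, 3.53% and 3.65%, and the KLF letters GGGTGTGG in 5.37%, 3.97%, 5.77% and 3.56%. By symbol 452 of the 579 genes called lower and 237 of the 319 that rose had a promoter in the table. Each motif was counted by itself and motifs may overlap. These are descriptions of letters, not of binding.

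Promoters of 6 genes, chosen after their values were seen, show what these shares refer to. Alpi, Slc3a1, H2-T3 and Btnl2 are genes called lower without colon replicate 1 whose windows hold the HNF4 letters, and Oit1 and Agr2 are genes that rose whose windows hold the CDX letters. Each is the 150 bases upstream of the start (RefSeq, GRCm38.p6), 5′ to 3′ on the strand of the gene. Capitals mark any of the 8 motifs searched, on either strand.
Alpi (chr1:87101607-87101756, minus strand): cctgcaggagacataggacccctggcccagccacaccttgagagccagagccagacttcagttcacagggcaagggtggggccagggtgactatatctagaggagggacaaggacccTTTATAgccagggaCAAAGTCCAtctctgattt
Slc3a1 (chr17:85028197-85028346, plus strand): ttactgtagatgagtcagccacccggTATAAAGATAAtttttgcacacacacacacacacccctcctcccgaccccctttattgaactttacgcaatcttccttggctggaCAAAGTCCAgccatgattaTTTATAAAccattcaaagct
H2-T3 (chr17:36190152-36190301, minus strand): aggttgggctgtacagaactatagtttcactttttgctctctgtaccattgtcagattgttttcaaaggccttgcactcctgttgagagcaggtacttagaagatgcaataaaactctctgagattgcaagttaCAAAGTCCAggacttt
Btnl2 (chr17:34354672-34354821, plus strand): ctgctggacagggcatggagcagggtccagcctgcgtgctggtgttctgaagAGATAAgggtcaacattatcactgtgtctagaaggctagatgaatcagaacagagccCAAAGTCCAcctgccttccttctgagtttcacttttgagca
Oit1 (chr14:8378764-8378913, minus strand): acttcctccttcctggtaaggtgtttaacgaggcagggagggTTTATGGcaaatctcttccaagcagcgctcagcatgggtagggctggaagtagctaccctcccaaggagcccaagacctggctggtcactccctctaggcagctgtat
Agr2 (chr12:35992775-35992924, plus strand): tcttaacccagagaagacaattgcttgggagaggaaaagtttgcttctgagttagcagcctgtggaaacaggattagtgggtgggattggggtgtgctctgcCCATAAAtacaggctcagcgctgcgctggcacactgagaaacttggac
The HNF4 letters begin 19 bases before the start in Alpi, next to TATA letters that begin 33 before it, 16 before it in H2-T3, 39 in Slc3a1 and 41 in Btnl2. The CDX letters begin 108 bases before the start in Oit1 and 48 in Agr2. Slc3a1 was given above. H2-T3, a nonclassical histocompatibility gene of the gut epithelium, was at 56.6 and 13.98 against 62.0 and 95.2 FPKM (-2.38 without colon replicate 1, adjusted p = 0.0131), and Btnl2, a butyrophilin-like gene, at 28.0 and 6.22 against 35.4 and 51.5 (-2.60, adjusted p = 0.0114). In both, colon replicate 2 was the lowest library.

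Stem cell genes gave a split list. The stem cell receptor gene Lgr5 was at 2.74 and 2.18 FPKM in the colon and 1.39 and 1.62 in the intestine (0.46 ± 0.17, adjusted p = 0.122), and the Wnt target Axin2 was level at 3.63 and 3.27 against 3.14 and 2.99. Olfm4, a stem cell product of the small intestine, was at 57.2 and 7.71 against 87.9 and 127, so colon replicate 1 was close to the intestine and colon replicate 2 far below it (-3.61, adjusted p = 0.0113, without colon replicate 1). None of 27 stem cell and Wnt genes was called, and without colon replicate 1 the counts were 11 higher, among them Cd44 (3.83 and 6.45 against 1.68 and 1.67), Sox9 (11.7 and 15.5 against 7.03 and 7.4) and the ephrin receptor gene Ephb3 (2.49 and 4.97 against 1.42 and 1.05), and 2 lower, Olfm4 and Tert (15.6% and 4.88% of all genes). Of 27 cell cycle genes only the cyclin gene Ccnd2 rose, where 2.69% of all genes did (49.9 and 67.04 against 26.7 and 25.4, 1.12 ± 0.16, adjusted p = 0.0312), and the proliferation marker Mki67, at 26.7 and 40.1 against 22.6 and 21.7, did not pass the test (adjusted p = 0.12).

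Of 26 genes of the fetal progenitor state tested, 18 were higher in both colon libraries than in both intestine libraries (56.6% of all genes were). Of the 26, 4 rose and none fell (2.69% and 0.0422% of all genes did), with a median of 1.05. Anxa3 and Anxa1, membrane-binding annexins, were at 15.2 and 28.6 against 1.44 and 0.358 FPKM and at 32.7 and 61.7 against 5.91 and 2.99 (3.59 ± 0.38 and 3.13 ± 0.41, adjusted p = 0.015 and 0.0234). Ly6a, the surface antigen Sca-1 of regenerating epithelium, was at 4.4 and 9.62 against 0.768 and 0.333 (2.30 ± 0.35, adjusted p = 0.0376), and the imprinted noncoding gene Meg3 at 17.6 and 38.5 against 4.1 and 3.45 (2.51 ± 0.39, adjusted p = 0.0376). Each of these 4 genes was highest in colon replicate 2, the library with the highest mesenchyme sum (2487 FPKM against 1086 in colon replicate 1), and the part of those cells was not tested. None of the 4 was called in the 4-library fit, and 1 of the 26 was called higher without colon replicate 2.

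Signalling genes gave single calls. Bmp2, a bone morphogenetic protein ligand, was at 11.97 and 18.0 against 4.54 and 4.00 FPKM (1.58 ± 0.22, adjusted p = 0.029). Of 23 Hedgehog and Bmp genes Bmp2 alone rose (2.69% of all genes did). The Hedgehog ligand genes Shh and Ihh were at 5.32 and 10.1 against 1.81 and 0.862 and at 40.7 and 45.1 against 34.7 and 33.5 (adjusted p = 0.0515 and 0.15). Their transcriptional target Gli1, which acts mainly in mesenchyme, was at 3.66 and 8.12 against 1.33 and 0.191, in the order of the mesenchyme sums. In the Notch pathway Atoh1 alone of 19 rose (2.69% of all genes did). The ligand gene Dll1 and the target Hes1 were at 9.16 and 6.83 against 10.0 and 12.1 and at 30.9 and 33.2 against 29.4 and 27.6 (adjusted p = 0.144 and 0.362). Leaving out colon replicate 1, 11 Hedgehog and Bmp genes and 8 Notch genes were called higher and none lower (15.6% and 4.88% of all genes), and none of either list was called without colon replicate 2. The genotype named in the labels has a Cre allele at Shh, and its part in the level of Shh was not tested.

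Barrier and defence genes included calls in both directions. Cldn8, a sealing claudin of the distal colon and kidney, was at 58.1 and 75.0 against 13.9 and 8.26 FPKM (2.51 ± 0.35, adjusted p = 0.0287). The pore-forming claudin genes Cldn2 and Cldn15, which pass cations, were at 91.0 and 31.5 against 132 and 155 and at 22.4 and 7.43 against 31.7 and 48.4 and were called lower without colon replicate 1 but not with both colon libraries (-2.15 and -2.25, adjusted p = 0.0112 and 0.0123). Of 20 keratins and claudins, 1 rose, and of 24 mucosal defence genes 4 rose and Reg3g fell (2.69% and 0.0422% of all genes). Of the 24, 2 were called higher without colon replicate 2 and 2 with the 4 libraries alone. Wfdc2, a secreted protease inhibitor, was at 43.3 and 70.5 against 5.18 and 1.96 (3.72 ± 0.39, adjusted p = 0.015), Slpi, another, at 4.97 and 5.87 against 0.112 and 0.0566, and the interleukin-1 antagonist gene Il1rn at 1.91 and 2.69 against 0.0343 and 0.00905, beside Saa1. Slpi, Il1rn and Saa1 passed the filter only through the colon. The antibody transporter gene Pigr was at 17.8 and 4.8 against 17.1 and 48.2. The chemokine gene Ccl25, which draws lymphocytes to the small intestine, was at 16.3 and 4.57 against 22.1 and 28.6. Both were called lower without colon replicate 1 but not with both colon libraries.

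Differences between the replicates of a tissue were themselves large for some genes. In the colon, replicate 1 exceeded replicate 2 most for the stomach protease gene Cym (86.0 and 2.17 FPKM), Cfi (38.3 and 1.87), Mme (22.1 and 1.99), Abhd3 (37.3 and 4.14) and Olfm4 (57.2 and 7.71). Among the genes in which replicate 2 exceeded replicate 1 most were the elastin gene Eln (6.02 and 31.7), the macrophage lysozyme gene Lyz2 (4.93 and 25.96) and the growth factor gene Ptn (6.81 and 33.1). Cym, Cfi, Mme and Olfm4 were all more abundant in both intestine libraries than in colon replicate 2, with Cfi at 40.3 and 40.4 and Cym at 266 and 67.1 there. In the intestine, replicate 1 exceeded replicate 2 most for the albumin gene Alb (47.8 and 0.257), Adamdec1 (41.5 and 2.1), the amylase gene Amy2b (19.03 and 0.995), Bpifb1 (10.2 and 0.452), Pnliprp1 (807 and 102) and Serpina6 (29.6 and 2.99), and replicate 2 exceeded replicate 1 for Pigr (17.1 and 48.2) and the noncoding gene Neat1 (7.92 and 22.8).

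Markers of cells outside the gut epithelium were present in all 4 libraries. Every one of 25 tested mesenchyme and smooth muscle genes was higher in both colon libraries than in both intestine libraries (56.6% of all genes were), and none was called. Without colon replicate 1, 11 of the 25 were called higher, with 8 of 12 nerve and glia, 5 of 11 leukocyte and 4 of 10 endothelial genes (15.6% of all genes). The smooth muscle actin gene Acta2 was at 209.8 and 443 FPKM in colon replicates 1 and 2 and 90.8 and 20.7 in the intestine, and Acta2 led this list in each of the 4. Endothelial genes (12) summed to 38.7 and 95.3 FPKM in the colon and 34.5 and 6.52 in the intestine, and nerve and glia genes (14) to 89.6 and 200.1 against 60.7 and 42.7. Leukocyte genes (15) summed to 52.0 and 113.6 against 49.9 and 25.4. The stomach list was led in colon replicate 1 and both intestine libraries by Cym, at 86.0 and 2.17 against 266 and 67.1, beside 23524 and 29459 FPKM in the hindstomach. In the squamous and urothelial list the bladder gene Upk1a rose (15.8 and 26.7 against 2.09 and 1.3, 3.02 ± 0.28, adjusted p = 0.0111). The part of these cells in the differences above was not tested.

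**Figure D5:**
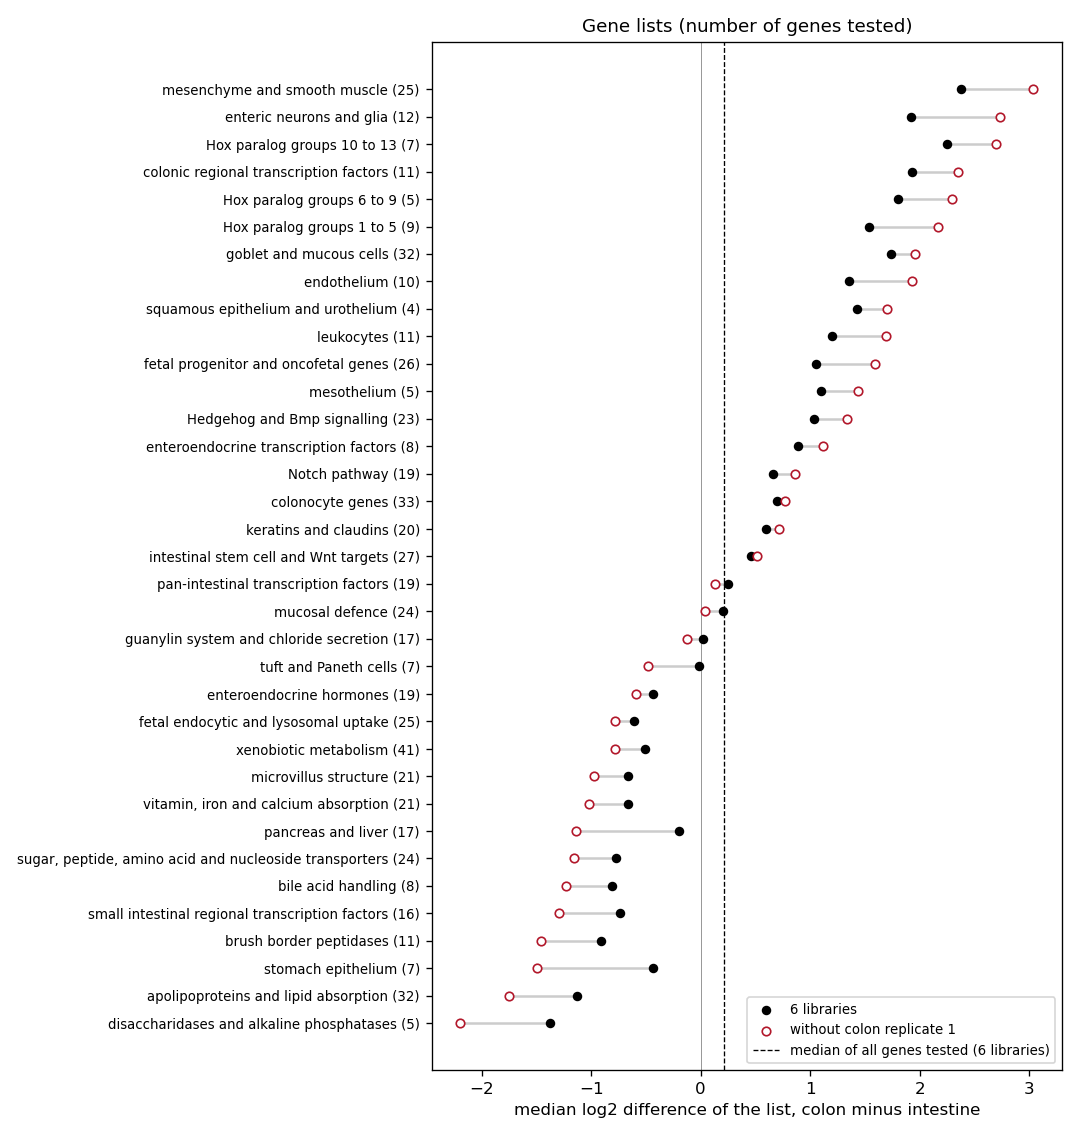
Median log2 difference, colon minus intestine, of each gene list with at least 4 genes tested (number in brackets). Black circles use both colon libraries, open red circles leave out colon replicate 1, and the dashed line is the median of all genes tested, 0.22. Absorption lists lie to the left and move further left without colon replicate 1, and goblet and mesenchyme lists lie to the right, as do the Hox lists, most of whose genes passed the filter only through the colon.

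Over the 27 lists of gut biology, 480 distinct genes were tested. Of these 59 rose, or 12.3% (2.69% of all genes did), and 1 fell, or 0.208% (0.0422% of all genes did). With the 4 libraries alone 26 rose, or 5.42%, and none fell (0.784% and 0% of all genes). The lists were chosen with earlier results of these data known. They also hold genes, Hox genes among them, that passed the filter only through the colon. The list shares are therefore not read against those of all genes. The lists with the most genes that rose were those of goblet cells (17 of 32 tested) and colonocytes (10 of 33). Without colon replicate 1 the lowest medians of these lists were -2.195 for disaccharidases and phosphatases (5 tested), -1.75 for lipid absorption (32) and -1.46 for peptidases (11). The median of all genes in that fit, with 1 colon library, was 0.29. Without colon replicate 2 the medians of the same lists were -0.56, -0.50 and -0.36, and that of all genes was 0.14. In that fit they were -0.38 for small intestinal regulators, -0.34 for nutrient transporters, -0.33 for fetal uptake and -0.31 for microvillus genes.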

How the data were processed

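Poly(A) RNA-seq of E16.5 gut epithelium was compared between colon and proximal small intestine, 2 libraries each. The values the authors deposited are FPKM for 23393 gene symbols. STAR 2.4.2a and the mm10 (GRCm38) build are named in the submitters' processing notes. What computed FPKM, with which annotation and strand setting, is not given in the sources used here, and reads of overlapping or closely similar genes may be shared. The table has 4 more columns that fit no listed sample, which were left out. Coordinates come from GENCODE M21, which holds 23257 of the symbols. Read counts are not in the table, so no counting error is available.

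Genes reaching 1 FPKM in 2 or more of the 4 libraries, 11861 in all, were analysed on the log2(FPKM + 1) scale. limma 3.58.1 in R 4.3.3 (eBayes with trend) was fitted to 6 libraries, hindstomach included for the spread (3 residual degrees of freedom), and was checked on simulated data. Named genes are the 12 called genes with the largest change in each direction at 10 FPKM or more, up to 4 called members per list, every called Hox and regional factor, the markers, the 10 most abundant genes, the 6 largest replicate differences each way, and others said to be chosen after their values were seen or given as values to describe a list. The members and lists were chosen with earlier results of these data known. Some genes under these rules are not reported here. Alternatives covered pseudocount, filter, scaling, libraries, threshold, depth class, replicate block and leaving out each library.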

Additional observations from a re-analysis of the deposited data

How the results depend on the processing

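The number of genes called was 324 with both directions together. It was 159 with a pseudocount of 5, 145 with no filter, 165 with at least 1 FPKM in all 4 libraries, 208 after quantile normalization, 93 with the 4 libraries alone, 62 with all 8, 119 with a test against a 1.5-fold change, 144 at 4-fold and 722 with depth class as a term. Leaving out 1 library gave 69 to 2434, the highest without colon replicate 1. List members called, 60 with both directions together, numbered 39 with no filter, 27 with 1 FPKM in all 4 libraries, 26 with 4 libraries, 22 with all 8, 34 with the 1.5-fold test and 92 with depth class, and leaving out 1 library gave 25 to 277. Median-of-ratios and equal-total scaling, pseudocount 0.1 and a stricter 5 FPKM filter kept both counts within 1.5 times. The cause of these shifts was not tested.

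Replicate numbers are shared by label. The correlation of deviations of same-numbered libraries was -0.591 for colon and intestine, -0.0122 for colon and hindstomach and 0.282 for intestine and hindstomach, so the numbers were not taken as pairs. A replicate block gave 117 genes and 31 list members. Crossed pairing in the 4 libraries, chosen after seeing the data, gave 1785 and 206. Direction reversed for Lgr5 after quantile normalization (-0.13, limma adjusted p = 0.737), and without colon replicate 2 for the stomach genes Gkn3 (0.92, adjusted p = 0.138) and Tff2 (0.62, adjusted p = 0.317), which were at -1.61 and -1.49 without colon replicate 1. Of 58 named genes called, 58 were called without colon replicate 1, 37 without colon replicate 2 and 27 with 4 libraries. With 2 libraries a tissue and no read counts, small differences between low genes could not be resolved.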

Other observations

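Genes of enzymes that build or modify sugar chains, not only those of mucins, were taken by 12 symbol prefixes after the data were seen. Of 56 tested, 18 rose and none fell (2.69% and 0.0422% of all genes), with a median of 1.03. Because the family was chosen from these data, its counts are not read against those shares. Fut9, Chst11, St6galnac4, B3gnt5, B3galt5 and St6galnac6, which rose, passed the filter only through the colon. With the 4 libraries alone 9 rose, and without colon replicate 1 the counts were 31 higher and 4 lower (15.6% and 4.88% of all genes). Fut2, the fucosyltransferase of blood group antigens in secretions, was at 79.8 and 127 FPKM in colon replicates 1 and 2 and 11.1 and 8.48 in the intestine (3.25 ± 0.39, adjusted p = 0.019). The sialyltransferase gene St6gal1 was at 18.1 and 31.0 against 2.88 and 1.34 (3.04 ± 0.33, adjusted p = 0.0154), and the sulfotransferase gene Chst4 at 22.5 and 21.0 against 3.44 and 3.32 (2.38 ± 0.15, adjusted p = 0.00503). Gcnt3, which branches mucin sugar chains, was at 20.9 and 31.4 against 6.67 and 5.03 and Galnt12, which starts them, at 37.9 and 55.5 against 13.03 and 11.1 (adjusted p = 0.029 and 0.0152, both limma). In 9 of the 56 both colon libraries lay below both intestine libraries (20.2% of all genes), among them St3gal4 at 51.8 and 19.5 against 121 and 118, which missed the threshold (adjusted p = 0.0816). The 4 called lower without colon replicate 1 were St3gal4, St3gal1, St3gal3 and Gcnt4.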
